A study of Mus musculus with 10 samples.

Results

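The 10 core and output genes of the circadian clock were followed through mouse colon tissue and colon organoids that had or lacked Trp53. They were taken as every non-control probe of the array whose gene name was Arntl, Per1, Per2, Per3, Cry1, Cry2, Nr1d1, Nr1d2, Dbp or Tef, which gave 26 of 56605 probes and 10 of 36610 gene names. Their use here is a check on time of day: tissue taken from KO and WT mice at different hours would be expected to differ in these genes. The hour at which each mouse was killed is not given in the sources used here, so no gene value was set against it.

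The clock is a feedback loop inside each cell. ARNTL (also called BMAL1) and its partner CLOCK switch on genes that carry E-boxes, among them the Per and Cry genes, whose proteins then block ARNTL and CLOCK. The receptors NR1D1 and NR1D2 (REV-ERB alpha and beta) close another loop by repressing Arntl, while DBP and TEF drive output genes through D-boxes. In mouse tissues Arntl peaks at the opposite time of day from Dbp, Nr1d1, Nr1d2, Tef and the Per genes, so a difference in collection time usually moves the groups apart.

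The tissue was colon from 4 male mice of a cross between Axin2CreERT2, a tamoxifen-inducible recombinase expressed from the Axin2 gene, and Trp53 fl/fl, in which Trp53 (the gene of the p53 tumour suppressor) can be deleted. All 4 mice, 2 labelled KO and 2 labelled WT, had drunk 2% dextran sodium sulfate (DSS, which injures the colon lining) for 5 to 7 days and were killed 2 months later, so no uninjured colon was compared. The ages of the mice and the alleles and tamoxifen status of the WT mice are not given in the sources used here. Each KO mouse was paired with a WT mouse on 2 arrays with the dyes swapped. The organoids, which are colon epithelium grown from crypts in a gel, came from VillinCreERT2 x Trp53fl/fl mice, in which the recombinase is expressed from the Villin gene of epithelial cells. They were WT in full medium, KO in full medium (made with 800 nM 4OH-tamoxifen for 2 days and then selected with Nutlin-3A, which stops cells with working p53) and KOWI, Wnt-independent KO organoids grown without the Wnt surrogate sWnt and the GSK3 inhibitor CHIR that the full medium held at 0.328 nM and 3 µM. Common to both media were R-spondin 1 conditioned medium (25%), noggin (100 ng/ml), EGF (50 ng/ml), the TGF-beta pathway inhibitor A83-01 (0.5 µM), N-acetylcysteine (1.25 mM) and the supplements B-27 and N2. Each organoid group had 2 samples, and 6 arrays linked the 6 samples in a loop. The labels call the replicates independent but do not say whether the organoid samples came from separate mice, and the spread behind those p-values may be technical.

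Promoters are shown for the genes on which the results below turn, because the loop acts through short motifs near the start of each gene. The sequences are the 250 bases before an annotated start, from RefSeq on mouse build GRCm38.p6, printed along the strand of the gene. Capitals mark 4 motifs, read on both strands: the E-box CACGTG, the E-prime-box CACGTT, the D-box TTANGTAA and the RRE TNGGTCA. The RRE letters are a short, loose pattern for the site type bound by NR1D1, NR1D2 and RORA. Whether any marked match is bound was not tested. None of the marked matches overlaps another. The search covered 300 bases, 50 of them after the start. The Arntl stretch is chr7:113207215-113207464 (plus strand), that of Per3 is chr4:151044666-151044915 (minus strand), that of Nr1d1 is chr11:98775378-98775627 (minus strand) and that of Nr1d2 is chr14:18239107-18239356 (minus strand). The Dbp stretch is chr7:45704997-45705246 (plus strand) and that of the second of 2 starts of Tef is chr15:81811164-81811413 (plus strand).
Arntl: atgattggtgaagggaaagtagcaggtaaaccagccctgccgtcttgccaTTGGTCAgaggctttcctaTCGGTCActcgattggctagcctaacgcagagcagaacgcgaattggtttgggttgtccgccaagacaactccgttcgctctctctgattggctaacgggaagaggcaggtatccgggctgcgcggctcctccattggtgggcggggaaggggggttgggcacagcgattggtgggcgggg
Per3: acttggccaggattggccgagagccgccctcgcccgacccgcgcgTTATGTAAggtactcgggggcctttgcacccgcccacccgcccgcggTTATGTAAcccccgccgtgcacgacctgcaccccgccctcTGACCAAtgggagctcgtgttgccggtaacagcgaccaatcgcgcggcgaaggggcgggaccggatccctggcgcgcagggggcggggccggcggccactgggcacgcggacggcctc
Nr1d1: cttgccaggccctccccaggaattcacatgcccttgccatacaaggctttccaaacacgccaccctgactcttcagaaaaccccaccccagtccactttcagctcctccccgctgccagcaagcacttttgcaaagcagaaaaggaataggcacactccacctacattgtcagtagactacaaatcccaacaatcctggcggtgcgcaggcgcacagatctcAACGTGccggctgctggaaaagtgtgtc
Nr1d2: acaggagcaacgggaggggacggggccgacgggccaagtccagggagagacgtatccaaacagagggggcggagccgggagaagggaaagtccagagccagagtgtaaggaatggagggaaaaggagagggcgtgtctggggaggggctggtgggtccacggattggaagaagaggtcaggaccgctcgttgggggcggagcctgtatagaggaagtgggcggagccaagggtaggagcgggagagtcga
Dbp: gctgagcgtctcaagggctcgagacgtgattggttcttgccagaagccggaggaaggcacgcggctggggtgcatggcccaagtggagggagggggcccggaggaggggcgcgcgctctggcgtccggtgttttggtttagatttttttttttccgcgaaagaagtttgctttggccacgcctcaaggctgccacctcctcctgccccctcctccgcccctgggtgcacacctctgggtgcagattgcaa
Tef: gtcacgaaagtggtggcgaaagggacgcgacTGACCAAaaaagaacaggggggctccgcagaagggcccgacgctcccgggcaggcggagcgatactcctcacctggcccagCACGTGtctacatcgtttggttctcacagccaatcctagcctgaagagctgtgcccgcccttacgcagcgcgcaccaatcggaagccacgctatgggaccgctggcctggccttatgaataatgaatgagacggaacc

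Arntl held 2 RREs within this stretch, and Per3 held 2 D-boxes and 1 RRE. Nr1d1 held 1 E-prime-box, 28 bases before its start, and Tef 1 E-box and 1 RRE. The Dbp and Nr1d2 stretches held none of the 4 motifs, which says only that these letters are not in this window. Of the 9 genes with a promoter in the table, 7 held at least 1 motif at 1 of their 12 starts: an E-box was found in 3 genes (Per1, Cry1 and Tef), an E-prime-box in 3 (Cry1, Cry2 and Nr1d1), a D-box in Per3 alone, and an RRE in 4 (Per3, Cry2, Tef and Arntl). Over all 32851 promoters of the same length, 7.15% held the E-box, 4.68% the E-prime-box, 2.32% the D-box and 11% the RRE. No promoter of Per2 was matched.

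An array held 62976 spots, 3671 of them controls, and between 44.6% and 59.1% of the non-control spots were well above background in a channel. Scanner software marked 13.7% to 16.3% of non-control spots as outliers on the 4 arrays with KOWI organoids, against at most 4.41% on the other 6. The outlier spots were left out. All tissue arrays were on 1 slide and all organoid arrays on another, so levels were not compared between tissue and organoids. Trp53, the targeted gene, had a log2 KO over WT ratio of -0.46 in mouse pair 1 and 0.04 in pair 2, so its probe did not separate the genotypes in pair 2. In organoids the probe was well above background in all 4 WT channels and in 0 of 8 KO and KOWI channels, so no ratio is given. Whether the probe lies in the deleted stretch was not checked. Of the 26 clock probes, 19 passed the filter in tissue (every channel of 1 group or more well above background) and 17 in organoids, and none was saturated. Cry1 was the 1 gene without such a probe in either material.

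In colon tissue no clock gene passed the test between KO and WT, and neither did any other gene. With limma across 14869 genes, 0 of the 9 clock genes measured passed an adjusted p of 0.05, and 0 of all genes did (0%). At an unadjusted p under 0.05 the counts were 0 of the 9 against 14.2% of all genes. By the brightest probe of each gene, Dbp and Tef were higher in KO in both mouse pairs, 2 of 9 genes against 31.2% of all genes, and no clock gene was lower in both, against 34.5%. Past a 1.5-fold difference in both pairs lay 0 of the 9 genes, against 2.16% of all genes higher and 1.02% lower. The median log2 ratio was 0.09 for the clock genes and -0.005 for all genes tested.

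Arntl, the activating arm, had a log2 intensity of 10.68 in the WT mouse and 10.69 in the KO mouse of pair 1, and 11.38 in WT and 11.18 in KO of pair 2. The mice of pair 2 were both above those of pair 1, whatever their genotype. The log2 ratio of KO over WT was 0.01 and -0.20 in the 2 pairs (mean -0.10, SE 0.09, limma adjusted p = 0.668, 95% interval -0.40 to 0.20). Its dimmer probes differed among themselves. On the mean of the dye swaps 1 was lower in KO in both pairs, at -0.41 and -0.24 (adjusted p = 0.336 with every probe tested by limma). The dye swaps of that probe disagreed in pair 2, at 0.50 with KO in Cy5 and -0.98 with KO in Cy3. It was well above background in 7 of 8 tissue channels. Another probe stood at 0.01 and -0.27, and a further one at 0.01 and -0.01.

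The repressor genes were close to even or disagreed between the pairs. Per1 was at 14.80 in WT and 14.73 in KO of pair 1 and at 14.40 and 14.42 in pair 2, a mean log2 ratio of -0.02 (95% interval -0.25 to 0.20). Cry2 was at 16.19 and 16.22 in pair 1 and at 15.74 and 15.71 in pair 2, a mean log2 ratio of 0.002 (95% interval -0.21 to 0.22). The dimmer Cry2 probes were at -0.23 and -0.04 and at -0.03 and -0.04 in the 2 pairs. For both genes, by the brightest probe, the genotypes differed by less than the mouse pairs did. Per3 was at 9.38 in WT and 9.61 in KO of pair 1 and at 9.75 and 9.71 in pair 2, with log2 ratios of 0.23 and -0.04. Per2 turned over between the pairs: it was at 11.52 in WT and 11.90 in KO of pair 1, and at 12.26 in WT and 11.90 in KO of pair 2. Its log2 ratios were 0.38 and -0.36, so the mean was 0.01 with a 95% interval from -0.81 to 0.83, the widest of the 9. Only 5.97% of genes differed as much between the pairs. The brighter Cry1 probe was well above background in 4 of 8 tissue channels, its ratios followed the dye (1.20 and 0.70 with KO in Cy5, -0.75 and -0.74 with KO in Cy3), and it was not tested.

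Of the REV-ERB receptors, which repress Arntl, Nr1d1 was at 10.79 in WT and 10.78 in KO of pair 1 and at 10.95 and 11.17 in pair 2. Its log2 ratios of -0.02 and 0.23 gave a mean of 0.11 (SE 0.10, limma adjusted p = 0.673). Nr1d2 was at 12.15 in WT and 12.05 in KO of pair 1 and at 11.92 and 12.32 in pair 2. KO was thus the lower mouse in pair 1 and the higher in pair 2, with log2 ratios of -0.10 and 0.40 (mean 0.15, SE 0.16, limma adjusted p = 0.743). Its other 2 probes had the same signs, at -0.26 and 0.46 and at -0.03 and 0.36.

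The output factors Dbp and Tef were the only clock genes whose brightest probe had the same sign in both pairs. Dbp was at 12.47 in WT and 12.64 in KO of pair 1 and at 12.84 in WT and 13.39 in KO of pair 2. The KO mouse of pair 2 stood above the other three, and the KO mouse of pair 1 lay below the WT mouse of pair 2, so the genotypes overlapped. The log2 ratios were 0.17 and 0.55 (mean 0.36, SE 0.13, limma adjusted p = 0.407, 95% interval -0.10 to 0.82), and 10.5% of all genes had a mean at least as high. Its dimmer probe was at 11.08 in WT and 11.46 in KO of pair 1 and at 10.87 and 12.03 in pair 2, with log2 ratios of 0.38 and 1.16 (mean 0.77, adjusted p = 0.368 with every probe tested by limma), so the 2 probes differed in size by more than 1.5 times, and by the dimmer one the genotypes did not overlap. With the pairing dropped and the KO mouse of pair 2 left out, the Dbp difference was -0.01. Tef was at 15.79 in WT and 15.91 in KO of pair 1 and at 15.50 and 15.60 in pair 2. Its log2 ratios of 0.12 and 0.10 were close together (mean 0.11, SE 0.06, limma adjusted p = 0.498, 95% interval -0.10 to 0.32). Without the pairing, leaving out the WT mouse of pair 2 or the KO mouse of pair 1 turned the Tef difference to -0.03 and -0.04.

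**Figure D1:**
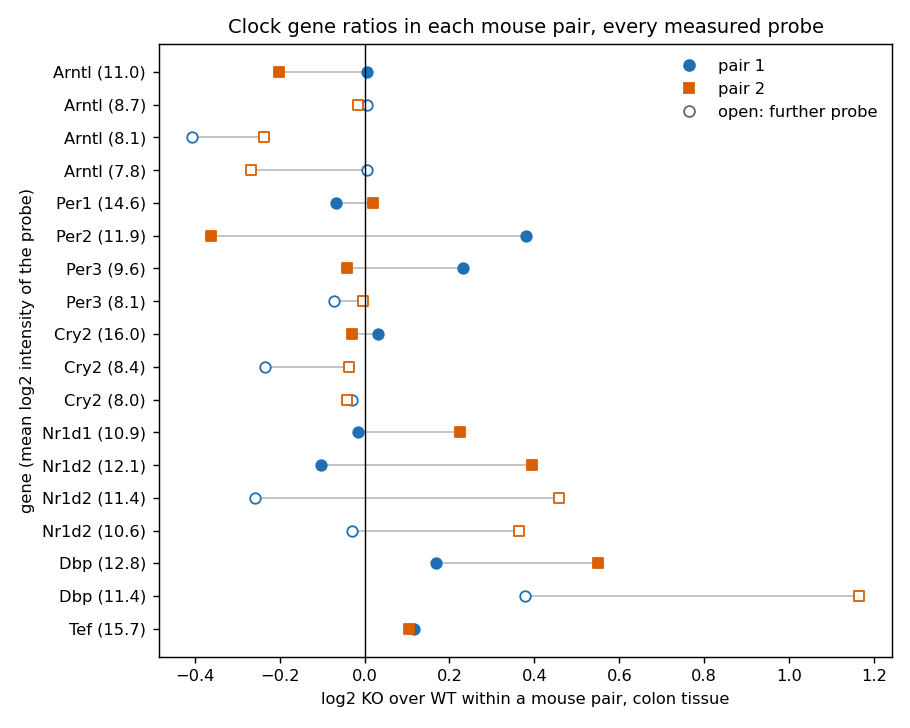
Log2 ratio of KO over WT in colon tissue for each probe of the 9 clock genes measured in both mouse pairs. Each row is 1 probe, with its mean log2 intensity in parentheses, circles are pair 1 and squares pair 2, filled for the brightest probe of a gene and open for further probes. Per2 lies at 0.38 and -0.36, Dbp lies right of 0 in both pairs (0.17 and 0.55), and the other brightest probes lie nearer to 0 or straddle it.

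The genes were also read by phase, as the brightest probes of the 7 genes that usually peak opposite to Arntl. In pair 1, 4 of these 7 (Per1, Per2, Per3, Nr1d1, Nr1d2, Dbp and Tef) were higher in KO and 3 lower, with Arntl at 0.01. In pair 2, 5 were higher and 2 lower, with Arntl at -0.20. On the mean of the pairs 6 were higher and 1 lower, with Arntl at -0.10, and none of these means passed the test. Of all 14869 genes, 7194 were higher on the mean. The 6 include Per2, whose mean of 0.01 changed sign with some of the processing alternatives. By the brightest probe, the 95% intervals of all 9 genes lay inside a 2-fold difference in either direction. They ran from a 0.570-fold to a 1.78-fold ratio at the widest. Intervals of this width leave differences such as the 1.28-fold mean of Dbp undecided. They were made for the brightest probes only, so none is given for the dimmer Dbp probe, which had a mean log2 ratio of 0.77 (SE 0.24).

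The 4 mice fell by pair more than by genotype, a comparison added after the values had been seen. By the brightest probe, for 8 of the 9 genes both mice of 1 pair lay above both mice of the other, against 62.5% of all genes, and for 0 of 9 did both KO mice lie on 1 side of both WT mice, against 28%. For Per2 the gap between the pairs was only 0.002. Arntl was higher in pair 2 by 0.59 on the log2 scale (0.70 between the WT and 0.49 between the KO mice, limma adjusted p = 0.0817). Dbp was higher in pair 2 by 0.56 (0.36 and 0.75, limma adjusted p = 0.116), so by the brightest probe Arntl and Dbp lay on the same side. By its dimmer probe, Dbp was lower in pair 2 between the WT mice (11.08 and 10.87) and higher between the KO mice (11.46 and 12.03). Cry2 was lower in pair 2 by 0.48 (adjusted p = 0.0790), Per1 by 0.36 (0.0932) and Tef by 0.30 (0.101), all from limma. A dimmer Tef probe went the other way, at 11.18 in WT and 11.38 in KO of pair 1 and 11.33 and 11.77 in pair 2. An outlier spot was left out of its pair 2 values. The dimmer probes of Arntl and Cry2 that passed the filter kept the side of the brightest probe. No gene on the array passed the adjusted threshold between the pairs (0%), and 35.4% of all genes had an unadjusted p under 0.05. Mouse pair and array pair cannot be told apart in these values.

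**Figure D2:**
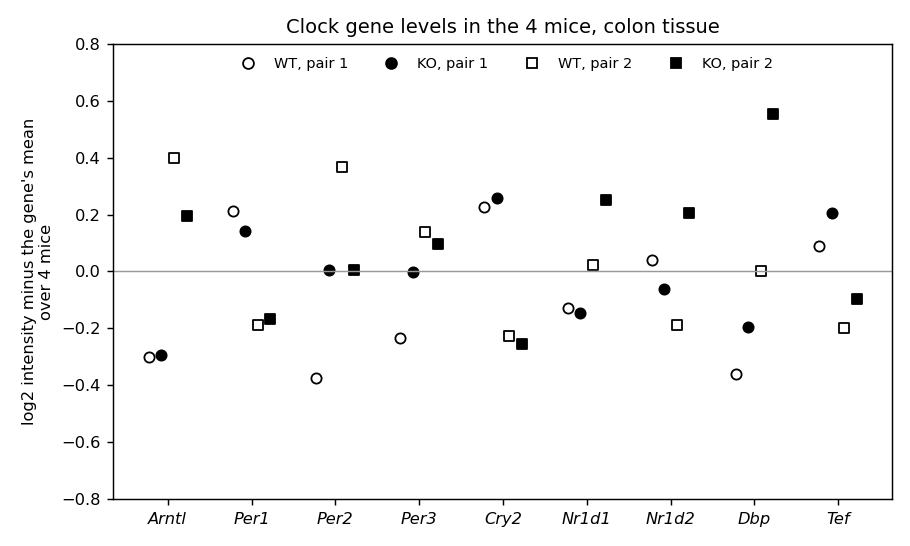
Log2 intensity of the brightest probe of 9 clock genes in each of 4 mice, as the difference from the gene's mean over the 4 mice. Circles are pair 1 and squares pair 2, open for WT and filled for KO. For Arntl both squares lie above both circles and for Cry2 both lie below, while open and filled symbols are mixed for every gene.

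Markers of the cell types of the colon wall leaned by genotype without passing the test, and fewer cells of a type cannot be told apart from less RNA per cell in these bulk samples. All 12 epithelial markers were lower in KO on average (median log2 ratio -0.12), and their summed intensity was 1756000 and 1619000 in the WT mice against 1586000 and 1524000 in the KO mice. All 11 skeletal muscle markers measured were higher (median 0.39; sums of 595100 and 879100 in WT, 766500 and 1049000 in KO), as were all 6 adipocyte markers (median 0.54; sums of 25600 and 64440 in WT, 33350 and 94890 in KO). All 9 smooth muscle (median 0.16), 9 fibroblast (0.13), 6 neural (0.13), 5 endothelial (0.30) and 4 immune markers (0.23) tested were higher too on average. Higher in both pairs were 8 smooth muscle, 6 fibroblast, 3 neural, 1 endothelial and 2 immune markers. The endothelial sums were 18120 and 14500 in WT and 17680 and 21140 in KO. The immune sums were 214600 and 175000 in WT and 209900 and 193700 in KO. Both overlapped between the genotypes, as did the skeletal muscle, adipocyte, smooth muscle and neural sums. The epithelial and fibroblast sums did not overlap. Of the 62 marker genes of all lists, 0 passed the adjusted test of limma. An unadjusted p under 0.05 was found for 15 of the 62, against 14.2% of all genes. The skeletal muscle and adipocyte sums were also higher in pair 2 than in pair 1, as Dbp and Arntl were by the brightest probe. Their part in the clock gene values was not tested.

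In organoids, which are cultured outside the mouse, no clock gene passed the test between KO and WT either, and no gene on the array did. Limma fitted 6 of the 10 genes, of which 0 passed (0% of 12308 genes passed, and 0 of 6 clock genes against 5.04% of genes had an unadjusted p under 0.05). Past 1.5-fold in both replicates lay 0 of 6, against 1.56% of all genes higher and 0.52% lower. Cry1 was too dim, and the brightest probes of Per2, Cry2 and Tef lost too many outlier spots on the KOWI arrays. Values below are log2 values of each sample solved from the loop of arrays and centred on the 6 samples of a gene.

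Arntl stood at -0.10 and 0.04 in WT, 0.04 and -0.05 in KO and 0.01 and 0.05 in KOWI. Nr1d1 stood at -0.18 and 0.15 in WT, -0.17 and 0.05 in KO and -0.10 and 0.25 in KOWI, so replicate 2, which was always the Cy5 sample, was higher in every group. Dbp stood at -0.07 and 0.10 in WT, -0.07 and 0.13 in KO and -0.09 and -0.01 in KOWI. These genes overlapped between all 3 groups, and the log2 ratio of KO over WT was 0.03 for Arntl, -0.04 for Nr1d1 and 0.02 for Dbp. Per1 stood at 0.05 and 0.11 in WT, -0.20 and 0.03 in KO and 0.07 and -0.07 in KOWI. Both KO samples lay below both WT samples for Per1, and its log2 ratio was -0.17 (SE 0.18, limma adjusted p = 1.00, 95% interval -0.62 to 0.29). How many of all genes had this order was not counted. Over the 6 genes the 95% intervals of KO over WT ran from -0.94 to 0.84, both ends from Nr1d2.

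Between Wnt-independent and WT organoids 5.13% of all genes passed and 0 of the 6 clock genes did (0 against 21.9% at an unadjusted p under 0.05). Between KOWI and KO the counts were 0 of 6 against 0.422% of genes (0 against 13.2% unadjusted). Past 1.5-fold in both replicates lay 0 of 6 in each, where 7.12% of all genes were higher and 4.49% lower than in WT, and 3% higher and 3.02% lower than in KO. The KOWI comparisons share the KOWI samples with each other, and each shares WT or KO with the comparison above. Per3 came nearest: it stood at -0.03 and 0.24 in WT, 0.21 and 0.06 in KO and -0.38 and -0.10 in KOWI. Both KOWI samples thus lay below all WT and KO samples, and the share of all genes with this order was not counted. The log2 ratio of Per3 was -0.35 in replicate 1 and -0.34 in replicate 2 against WT (SE 0.20, limma adjusted p = 0.386, 95% interval -0.83 to 0.14). Against KO it was -0.37 on average (limma adjusted p = 0.544). It passed against WT only when the arrays were taken as independent samples (limma adjusted p = 0.0356). A dimmer Per3 probe had ratios of -0.07 and -0.67 against WT.

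Nr1d2 split the 2 KOWI samples. It stood at 0.02 and 0.10 in WT and at 0.07 and -0.04 in KO, but at 0.60 in KOWI replicate 1 and -0.75 in KOWI replicate 2. The WT and KO samples lay together between the KOWI samples, and all 3 probes of the gene gave that order. On the single arrays KOWI replicate 1 was above WT by 0.49 and above KO by 0.66, and KOWI replicate 2 had log2 ratios of -0.79 to WT and -0.80 to KO. The difference of -1.35 between the KOWI samples was matched or exceeded by 1.84% of genes, and the mean ratio to WT was -0.13 with a 95% interval from -1.02 to 0.76. Leaving out KOWI replicate 1 or 2 gave -0.80 and 0.54. Dye and replicate cannot be told apart in this comparison. For Dbp, Nr1d1 and Arntl the same 2 samples differed by 0.07, 0.34 and 0.04.

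By their brightest probes, Per2, Cry2 and Tef could be solved only with the outlier spots kept. Per2 then stood at -0.18 and 0.05 in WT, 0.01 and 0.06 in KO and -0.01 and 0.06 in KOWI. Cry2 stood at 0.18 in both WT samples, -0.07 and -0.01 in KO and -0.22 and -0.06 in KOWI. The 4 Trp53-deleted samples thus all lay below WT, and the share of all genes with this order was not counted. On the 2 arrays of KO against WT, which had no Cry2 outlier spot, its log2 ratios were -0.26 and -0.35, and with the authors' table the mean ratio was -0.26 (limma adjusted p = 1.00). Tef stood at 0.02 and 0.07 in WT, -0.07 and 0.06 in KO and -0.15 and 0.06 in KOWI. With outlier spots left out, the dimmer Cry2 probes had mean log2 ratios of -0.26 and -0.24 for KO over WT. For KOWI over WT they were at -0.40 and -0.33 (adjusted p = 0.347 and 0.460 with every probe tested by limma). The dimmer Tef probe that passed the filter was at -0.07 for KO over WT. For KOWI over WT it was at -0.30 (adjusted p = 0.495 with every probe tested by limma).

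**Figure D3:**
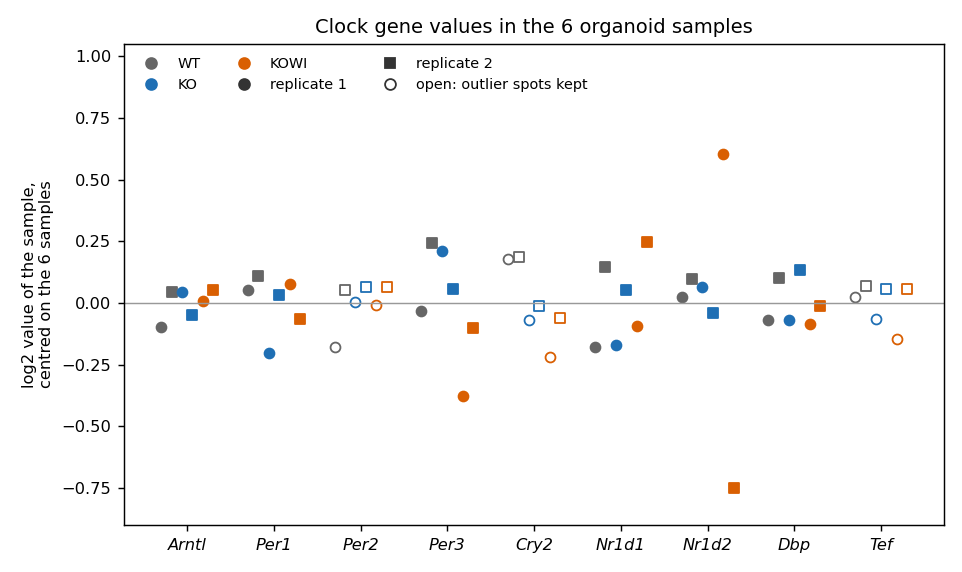
Log2 values of 9 clock genes in the 6 organoid samples, centred on the 6 samples of each gene. Colours give the group, circles replicate 1 and squares replicate 2, and open symbols genes solved with outlier spots kept. The Nr1d2 values of the KOWI samples lie at 0.60 and -0.75, and all other values between -0.38 and 0.25.

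The KO over WT ratio was then compared between tissue and organoids. Of 6 clock genes tested in both, 0 differed by limma (0% of 10324 genes did, and 0 of 6 against 11.9% had an unadjusted p under 0.05). Dbp had the largest difference of the 6, 0.34 higher in tissue (SE 0.17, adjusted p = 0.507).

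Clock regulators outside the 10 genes did move in the Wnt-independent organoids. Of 19 further clock genes reported here, 11 could be tested, and 3 rose and 0 fell against WT (4 of 11 against 21.9% of all genes had an unadjusted p under 0.05), where 3.14% of all genes rose and 1.99% fell. Rora, a receptor that activates Arntl through the same RRE at which NR1D1 and NR1D2 repress it, rose by 2.35 on the log2 scale (2.03 and 2.67, SE 0.24, limma adjusted p = 0.0155). Csnk1e, a kinase that marks PER proteins for breakdown, rose by 1.32 (1.29 and 1.34, adjusted p = 0.0215). Arntl2, a close relative of Arntl, rose by 0.87 (0.77 and 0.97, limma adjusted p = 0.0498), a call that was lost with any 1 sample left out. Arntl itself had a log2 ratio of 0.06 in the same samples (95% interval -0.37 to 0.49). Its promoter above carries 2 matches to the RRE letters, which 11% of all promoters held, and their binding was not tested. Another probe of Csnk1e above background moved less, with ratios of 0.45 and 0.68 in replicates 1 and 2. A further one could not be solved with outlier spots left out. The calls were fragile: all 3 were lost without WT replicate 2 or KOWI replicate 2, with the scanner software's ratios and with the authors' table, and only Rora of the 3 remained without KOWI replicate 1 or WT replicate 1, while the direction held in each. Among 12 epithelial markers in the same comparison, 2 fell (Krt20 by 1.46 and Vil1 by 1.23) and 0 rose by limma. Of the 12 ratios 10 were negative and 2 positive, with Krt18 highest at 0.78 (limma adjusted p = 0.0671). The part of cell makeup in the clock regulators was not tested.

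Against KO organoids the same 3 regulators had log2 ratios of 1.43 (Rora), 0.90 (Csnk1e) and 0.60 (Arntl2), and 0 of 11 passed by limma, against 0.422% of all genes (3 of 11 against 13.2% had an unadjusted p under 0.05). Between KO and WT organoids 0 of 11 passed, against 0% of all genes (2 of 11 against 5.04% unadjusted), with Rora at 0.92 and Timeless at 0.91 highest and Prkaa1 at -0.11 and Clock at -0.08 lowest. In tissue 14 were tested and 0 passed, against 0% of all genes (3 of 14 against 14.2% unadjusted). Rora again stood highest there, at 1.24 (1.44 and 1.03, SE 0.14, limma adjusted p = 0.274), followed by Arntl2 at 0.51, with Npas2 at -0.33 and Prkaa1 at -0.30 lowest. In the mice Rora was at 11.59 and 11.43 in WT and 13.03 and 12.46 in KO, so the genotypes did not overlap, as was the case for 28% of all genes. Another Rora probe above background had a smaller ratio of 0.46 in pair 2, and its pair 1 ratio was lost to outlier spots.

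**Figure D4:**
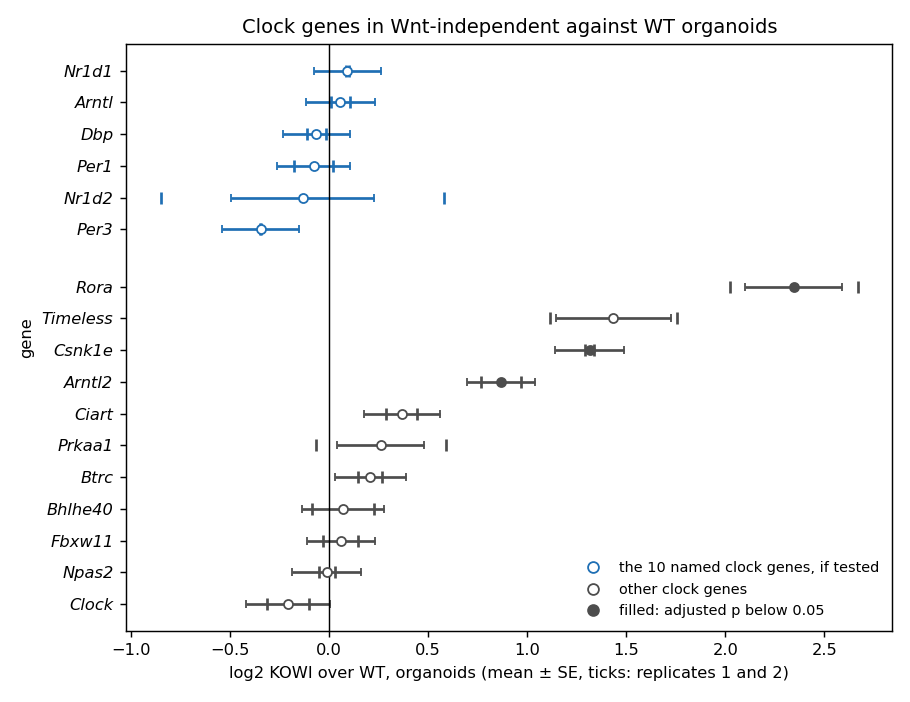
Log2 ratio of KOWI over WT organoids for the 6 of the 10 clock genes that could be tested (blue) and 11 further clock genes (grey). Points are means with SE from limma, ticks the replicates, and filled points have an adjusted p below 0.05. Rora (2.35), Csnk1e (1.32) and Arntl2 (0.87) are filled, and none of the blue points is.

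Genes downstream of the clock and genes that respond to daily signals held no call in tissue, where 0% of all genes passed and 14.2% had an unadjusted p under 0.05. Of 12 clock output genes 11 were tested and 0 passed by limma (4 of 11 unadjusted), with Ppp1r3c (a subunit that brings a phosphatase to glycogen) at 1.41 and Pdk4 (a kinase that restrains pyruvate dehydrogenase) at 1.30 highest and Lonrf3 at -0.77 and Wee1 at -0.30 lowest. Of 11 glucocorticoid response genes, which follow the daily hormone rise, 10 were tested and 0 passed (1 of 10 unadjusted), in a range from -0.14 for Ddit4 and -0.08 for Errfi1 to 0.17 for Dusp1 and 0.23 for Sgk1. Of 8 genes that answer CREB and serum signals 0 passed (1 of 8 unadjusted). Sik1 stood highest at 0.53 and Nr4a1 next at 0.34, while Fos, at -1.18 and 0.67 in the pairs, had the lowest mean at -0.25, and Ier2 was next at 0.01.

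In KOWI against WT organoids 2 of 8 output genes passed by limma, where 3.14% of all genes rose and 1.99% fell. Usp2, a protease that removes ubiquitin, fell by 1.48 (adjusted p = 0.0189) and Wee1, a kinase that holds back mitosis, rose by 1.69 (adjusted p = 0.0299). Another Usp2 probe had smaller ratios, at -0.59 and -0.33. Against KO, Usp2 fell by 1.63 (adjusted p = 0.0377). Dusp1, a phosphatase of MAP kinases, rose by 2.42 against WT (adjusted p = 0.0151) and by 2.14 against KO (adjusted p = 0.0377), the only 1 of 6 glucocorticoid response genes to pass in either. Sik1, a kinase induced by CREB, rose by 1.501 against WT (adjusted p = 0.0215), the only 1 of 5 in its list. Each of these calls was lost under at least 1 alternative, where the limma adjusted p against WT reached 0.088 for Dusp1, 0.104 for Usp2, 0.165 for Wee1 and 0.142 for Sik1, and against KO 0.222 for Dusp1 and 0.208 for Usp2.

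By the shape of their levels over the 4 mice and 6 organoid samples, each material centred separately, the genes most like Dbp were Ankrd29 (r = 0.94), Tom1l2 and Rnf11 (both 0.93), Dnajb6 and Babam2 (both 0.92) of 10215 genes. Those most like Arntl were Mau2 (r = 0.98), Get3 (0.96), Hdac8 and Fam83h (both 0.95) and Plek2 (0.94). The 10 clock genes were left out of this ranking beforehand, so it does not show whether they follow Dbp or Arntl. None of the further clock genes was among those named. The organoid levels used here are channel intensities, not the values solved from the loop. On this scale Dbp stood at -0.13 and 0.91 in the KOWI samples, against -0.09 and -0.01 in the loop values. The 10 values share arrays, so array effects enter both sides of each r, and the r values are given as a description.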

How the data were processed

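RNA from 4 mice and 6 organoid samples was measured on 10 two-colour Agilent arrays. Per the file headers, the deposited files hold the mean and background intensity of each spot and a log10 ratio of Cy5 over Cy3 made by the scanner software, with probe positions on mm9. The authors' deposited value table holds a log2 ratio, and limma is named, with no version, in the submitters' processing notes; set against the scanner ratios it ran as Cy5 over Cy3 with slopes of 0.970 to 1.00 and column medians of -0.00058 to 0.0171, and its centring stays unknown.

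Here intensities were processed in R 4.3.3 with limma 3.58.1: normexp with an offset of 50, then loess within arrays, with the 3671 control spots and the outlier spots given no weight. Outlier spots were left out, spots of a probe averaged, and each gene was represented by its brightest probe. To be tested, a gene needed that probe well above background in all channels of 1 group or more. In tissue the dye swaps of a pair were averaged and the 2 pair ratios tested against 0, the pair coming from the shared arrays. In organoids the loop was solved for 6 samples, which were fitted by group and replicate number (also the dye). Adjusted p-values are Benjamini-Hochberg over all genes tested, with a threshold of 0.05; an exact permutation test of 2 against 2 samples could not go below 0.333. The fits were tested on simulated data. Figures were drawn with matplotlib 3.10.9 and tables joined with pandas 2.3.3.

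All 10 clock genes are named in every comparison. Of the other lists (further clock genes, output, glucocorticoid response, and CREB and serum response), those that passed are named, else the 2 highest and 2 lowest; some listed genes are not reported here. For Dbp and Arntl, the 5 genes of highest Pearson r outside the 10 clock genes are named. The dimmer probes, the other probes of the called genes and the comparison of mouse pairs were added after the values had been seen, as were the tissue mouse levels of Rora. The genes, lists and tests were chosen with earlier results of these data known. On 1 tissue array the Cy3 source name and the title give different replicate numbers; the title, which matches the animal's label, was followed. The alternatives were another offset, the scanner ratio, the authors' table, median centring, outlier spots kept, no filter, other probe rules, arrays as independent, no replicate block, and each sample left out.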

Additional observations from a re-analysis of the deposited data

How the results depend on the processing

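Among the clock genes that each alternative could test (7 to 10 in tissue, 6 to 9 in organoids), 0 passed in tissue and 0 in KO against WT organoids under every alternative run; with arrays taken as independent, 1 clock gene (Per3) passed in each KOWI comparison. Over all genes, tissue KO over WT gave 935 calls with median centring and 457 with arrays independent (1 further clock gene in each). Organoid KO over WT gave 1 call with the mean of all probes, 1 with probes under a log2 intensity of 14, and 743 with arrays independent (3 further clock genes). The 631 calls of organoid KOWI over WT became 72 with the scanner ratio, 0 with the authors' table, 196 with median centring, 68 with outlier spots kept, 164 with no filter and 3930 with arrays independent, and the 3 further clock genes became 0, 0, 1, 1 and 2 in the first 5 of these. The 52 of organoid KOWI over KO became 27 with an offset of 16, 0 with the scanner ratio, 0 with the authors' table, 31 with median centring, 0 with outlier spots kept, 2 with no filter and 2487 with arrays independent (4 further clock genes). The tissue minus organoid test gave 24 with median centring. Without the replicate block, KOWI over WT gave 437 calls and KOWI over KO 42, and the tissue pairing dropped left 0; no clock gene call changed. With each sample left out in turn, calls ran from 0 to 31 (KO over WT), 0 to 1058 (KOWI over WT, further clock genes 0 to 3) and 0 to 146 (KOWI over KO, further clock genes 0 to 1).

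Clock gene ratios near 0 changed sign. In tissue Per2 was -0.021 with the scanner ratio, -0.065 with median centring and -0.0020 with outlier spots kept, and Cry2 was -0.034 with median centring, -0.056 with the mean of probes and -0.14 with probes under 14. In organoid KO over WT, Per3 was -0.016, -0.027 and -0.039 with the scanner ratio, median centring and the mean of probes; Arntl was -0.045 and -0.036 with the first 2, and Dbp -0.023 with the mean and -0.064 under 14. In KOWI over WT, Arntl was -0.0098 with the scanner ratio and -0.10 with the mean of probes, and Dbp 0.0035 with median centring; in KOWI over KO, Arntl was -0.11 with the mean of probes. The cause was not tested. Leaving out each mouse, unpaired, moved tissue ratios from -0.22 to 0.18 (Per1), -0.36 to 0.38 (Per2), -0.091 to 0.28 (Per3), -0.26 to 0.26 (Cry2), -0.092 to 0.30 (Nr1d1), -0.014 to 0.73 (Dbp), -0.040 to 0.26 (Tef), -0.45 to 0.25 (Arntl) and -0.73 to 0.067 (Npas2). In organoid KO over WT the ranges were -0.19 to 0.24 (Per3), -0.024 to 0.057 (Dbp), -0.067 to 0.12 (Arntl), -0.096 to 0.013 (Nr1d1) and -0.45 to 0.35 (Nr1d2). In KOWI over WT they were -0.025 to 0.14 (Arntl), -0.80 to 0.54 (Nr1d2) and -0.22 to 0.066 (Per1), and in KOWI over KO -0.054 to 0.23 (Per1), -0.75 to 0.58 (Nr1d2) and -0.060 to 0.13 (Arntl). With 2 samples a group, the number of arrays limits the precision.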
